A study of Saccharomyces cerevisiae with 2 samples.

Results

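Of the 10 genes named for the protein phosphatase 2A (PP2A) family, 9 had a measured yeast deletion strain, among 5219 strains with a value on both arrays. The family was taken by gene symbol and not by a cut on its values, but with earlier results of these data known. It comprised TPD3, CDC55, RTS1, PPH21, PPH22, PPH3, RRD1, RRD2, PPG1 and SIT4. CDC55 is not analysed here, because 0 probes carried its symbol in the platform annotation used.

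The strains are Saccharomyces cerevisiae diploids that each lack 1 copy of a gene, carry DNA tags that identify them, and can be converted to haploids. Per the labels, a pool of 5896 of them received either the cassette tub1D::URA3, which deletes 1 copy of the alpha-tubulin gene TUB1, or the control cassette ura3D::URA3. Both pools were grown for 2 days at 30 °C on medium without uracil, and all strains in both pools therefore carry a URA3 cassette beside their own gene deletion and keep 1 intact copy of the deleted gene. Tags amplified from the tub1D pool (Cy3) and from the ura3D control pool (Cy5) were hybridised together on each of 2 arrays, experiments 1 and 2, which form 1 group. The series title names synthetic haploinsufficiency, in which loss of 1 copy of a gene matters more when 1 copy of TUB1 is also lost.

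PP2A is a serine/threonine phosphatase built from a scaffold, a regulatory and a catalytic subunit. In budding yeast the scaffold is Tpd3, the regulatory subunit is Cdc55 or Rts1, and the catalytic subunit is Pph21 or Pph22. Complexes with Cdc55 act in mitotic entry, the spindle checkpoint and mitotic exit, and complexes with Rts1 act at centromeres and in the spindle position checkpoint. Pph3, Ppg1 and Sit4 are related catalytic subunits with other partners, and Rrd1 and Rrd2 are prolyl isomerases that activate phosphatases of this family.

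All values below are log2 ratios of the 2 channels with the sign as deposited, centred on the median of each array and tag set, and averaged over both tags of a strain. The labels do not state the direction of the ratio. From the dyes and the usual red over green ratio of the scanner program, a positive value likely means fewer tags in the tub1D pool than in the control pool. The TUB1 strain gave 0 of 4 tag values, so it could not check this reading. For scale, the strain lacking 1 copy of TUB3, the minor alpha-tubulin gene, stood at 4.22 ± 0.32 (SD, n = 2 arrays). Negative ratios were more common on array 1, where 1006 strains were at least 2-fold negative, than on array 2, where 305 were.

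Of the PP2A family strains, 7 lay within 0.54 of 0 on both arrays, with ratios of both signs. The other strains, RTS1 and PPH3, were at least 2-fold negative on array 1 and not on array 2. The means of all members ran from -1.23 for RTS1 to 0.32 for TPD3, and their median was -0.15, beside a median of -0.09 over all strains. No member passed limma's test against 0 at an adjusted p under 0.05 over all strains. The share over all strains was also 0%, with TUB3 not passing either, so this result does not set the members apart. The smallest adjusted p was 0.238 for RRD2 among the members and 0.229 over all strains. At an unadjusted limma p under 0.05 there was 1 member, RRD2, on the negative side, where 11.7% of all strains lay. On the positive side there were 0 members, beside 9.12% of all strains.

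**Figure D1:**
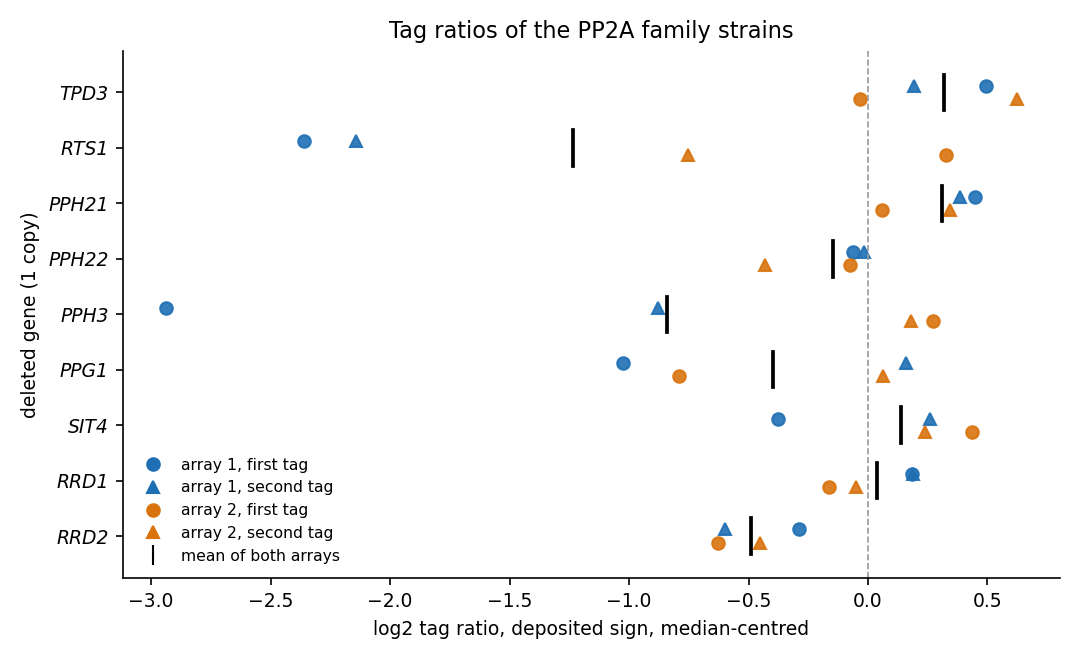
Log2 tag ratios (x axis, deposited sign, median-centred) of the 9 measured strains (y axis), with array by colour, tag by shape and the strain mean as a black bar. The RTS1 tags lie at -2.36 and -2.14 on array 1 and at 0.33 and -0.76 on array 2. The PPH3 tags lie at -2.94 and -0.88 on array 1 and at 0.27 and 0.18 on array 2. The PPG1 tags separate from each other on both arrays, and all 4 RRD2 values lie between -0.63 and -0.29.

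The scaffold strain TPD3 had positive ratios of similar size on both arrays. Its first tag had a log2 ratio of 0.49 on array 1 and -0.03 on array 2, and its second tag had 0.19 and 0.62. Over both tags the strain stood at 0.34 on array 1 and 0.30 on array 2, a mean of 0.32 ± 0.03 (SD, n = 2 arrays) or 1.25-fold. Which tag was higher therefore differed between the arrays, although the strain average hardly moved. The 95% interval from limma ran from -0.14 to 0.78 and the adjusted p was 0.294. TPD3 lies on chromosome I, whose strains had low second tags in general, whose median was -3.52 on array 1 against -0.65 on array 2. The second tag of TPD3 was not among the low ones: of 71 such strains, 64 on array 1 and 63 on array 2 had a lower second tag.

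The RTS1 strain, which lacks 1 copy of the regulatory subunit of the centromeric PP2A complex, was strongly negative on array 1 only. On array 1 its tags had log2 ratios of -2.36 and -2.14, and all 12 spots were negative, from -3.94 to -1.48. On array 2 its second tag had -0.76, with all 6 spots negative. The first tag on array 2 averaged 0.33, but its 6 spots did not form 1 cluster. Of those spots 2 stood at 1.64 and 2.18 and the other 4 between -1.08 and -0.22, so that their median was -0.25. The mean of the strain was -1.23 ± 1.44 (SD, n = 2 arrays), with -2.25 on array 1 and -0.21 on array 2, and the adjusted limma p was 0.338. Its 95% interval, from -3.45 to 0.98, covers both a strong negative ratio and a positive one.

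Scatter among repeated spots was also large for RTS1. The SD over the 6 spots was 0.88 and 0.54 for its tags on array 1, where the median over all strains with 6 spots was 0.06 for either tag. Tags at or under -1.5 on that array had a higher median spot SD, 0.56 in both tag sets. On array 2 the first RTS1 tag had a spot SD of 1.28, against a median of 0.21. The part of spot scatter in the RTS1 mean was not tested.

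**Figure D2:**
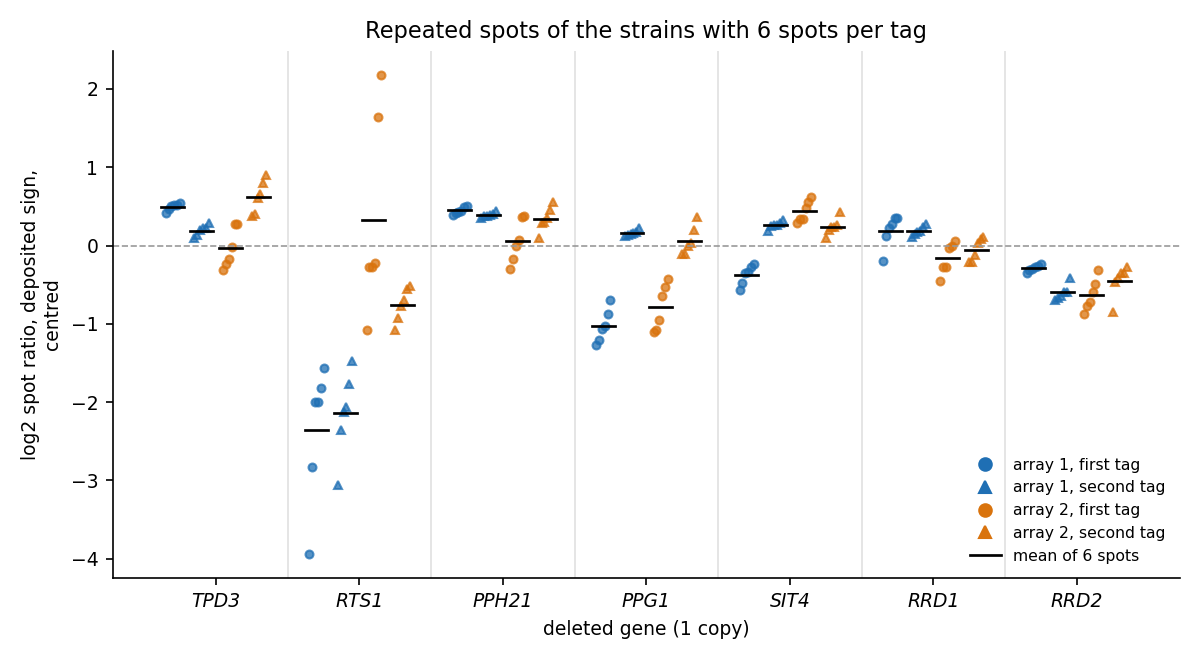
Log2 ratios of single spots (y axis, deposited sign, centred) for the 7 strains with 6 spots per tag (x axis), with array by colour, tag by shape and the mean of 6 spots as a black bar. The RTS1 spots spread from -3.94 to 2.18, whereas all 24 RRD2 spots lie below 0.

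The strains of the paralogous catalytic subunits, PPH21 and PPH22, stood on opposite sides of 0 by small amounts. For PPH21 all 4 tag values were positive, at 0.45 and 0.39 on array 1 and, on array 2, at 0.06 and 0.34. Its mean was 0.31 ± 0.15 (SD, n = 2 arrays) and its adjusted limma p 0.323. For PPH22 all 4 were negative, at -0.06 and -0.02 on array 1 and, on array 2, at -0.08 and -0.43, and the mean was -0.15 ± 0.15 (adjusted limma p 0.553). Each PPH22 tag had 1 spot, whereas each PPH21 tag had 6.

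The difference between the paralogs was nearly the same on both arrays. PPH21 exceeded PPH22 by 0.46 on array 1 and by 0.45 on array 2, and in 4 of 4 tag comparisons, by 0.13 to 0.77. These are differences between log2 ratios of different tags. For comparison, the first and the second tag of 1 strain differed by a median of 0.37 over all strains, which is of similar size. An exact sign permutation test of the difference gave a two-sided p of 0.5, the smallest that 2 arrays allow, and no other test of it was run.

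Among the related catalytic subunits, the PPH3 strain was negative on array 1 and slightly positive on array 2. Pph3 is the catalytic subunit of a phosphatase known for reversing DNA damage signalling. Its tags had log2 ratios of -2.94 and -0.88 on array 1 but 0.27 and 0.18 on array 2, each from 1 spot. The mean was -0.84 ± 1.51 (SD, n = 2 arrays) and the adjusted limma p 0.468. The arrays therefore disagreed in sign, and the 95% interval ran from -3.16 to 1.48.

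RTS1 and PPH3 shared this difference between arrays, which was large for the series. Array 1 minus array 2 was -2.04 log2 units for RTS1, larger in size than in 96.4% of strains. It was -2.14 for PPH3, larger in size than in 97.0% of strains. Both were among the 1006 strains at least 2-fold negative on array 1, of which 58.2% were above -0.5 on array 2. The share at least 2-fold negative was 19.3% of strains on array 1 and 5.84% on array 2. What set the difference between the arrays was not tested.

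**Figure D3:**
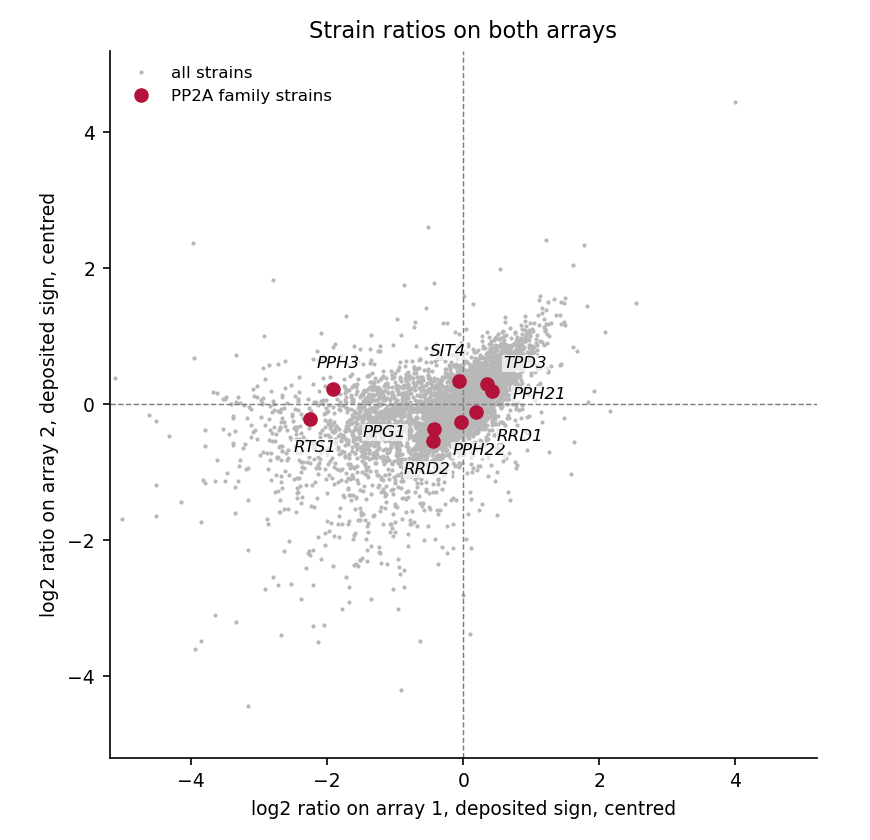
Log2 ratio of each strain on array 1 (x axis) and array 2 (y axis), with all 5219 strains in grey and the 9 PP2A family strains in red. Of these, 7 lie within 0.54 of 0 on both arrays, whereas RTS1 and PPH3 lie at -2.25 and -1.91 on array 1 but at -0.21 and 0.23 on array 2.

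The PPG1 strain showed a difference between its tags that both arrays shared. Ppg1 is a PP2A-like catalytic subunit that acts with the Far complex. The first tag had log2 ratios of -1.02 on array 1 and -0.79 on array 2, and all 12 of its spots were negative. The second tag had 0.16 and 0.06. The mean over both tags was -0.40 ± 0.05 (SD, n = 2 arrays), with an adjusted limma p of 0.257 and a 95% interval from -0.86 to 0.06. This small SD describes the agreement of the arrays and not that of the tags, whose difference, first minus second, averaged -1.02. A difference between tags of this size was not rare, since it was smaller in 76.8% of strains. The data therefore hold 2 values for the same strain, -0.91 by the first tag and 0.11 by the second, and do not say which one describes it.

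The SIT4 strain stood near 0. Sit4 is a catalytic subunit that acts in the G1 to S transition and downstream of TORC1. Its second tag had log2 ratios of 0.26 on array 1 and 0.24 on array 2. Its first tag had -0.37 and 0.44, with 6 of 6 spots negative on array 1 and 6 of 6 positive on array 2. The spots of this tag thus agreed within each array and changed sign between arrays. The mean was 0.14 ± 0.28 (SD, n = 2 arrays) and the adjusted limma p 0.636.

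Of the activator strains, RRD2 was negative in every tag, array and spot measured, and RRD1 stood near 0. On array 1 the RRD2 tags had log2 ratios of -0.29 and -0.60, and on array 2 they had -0.63 and -0.45. All 24 of its spots were negative, but these are repeats of 4 tag values, and 20.1% of strains with 4 values had all 4 negative. The mean was -0.49 ± 0.07 (SD, n = 2 arrays), or 0.711-fold. A lower mean was found in 27.2% of all strains, whose lower quartile was -0.54. The RRD2 limma result is as follows. The 95% interval of RRD2, from -0.96 to -0.02, was the only one among the members that did not hold 0. Its unadjusted limma p was 0.0448, but adjusted over all strains the p was 0.238. On array 1 the RRD1 tags had 0.18 and 0.19, and on array 2 they had -0.16 and -0.05, a mean of 0.04 ± 0.21 (adjusted limma p 0.882).

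RRD2 was below RRD1 in 4 of 4 tag comparisons. Among further pairs compared, PPG1 was below SIT4 in 4 of 4, although the PPG1 tags disagreed in sign, and TPD3 was above RTS1 in 3 of 4. Both tags of 1 strain differed by a median of 0.37 over all strains. The difference in log2 ratio, RRD2 minus RRD1, was -0.63 on array 1 and -0.43 on array 2, and -0.79 to -0.40 over the tags. The exact sign permutation test again gave its smallest two-sided p, 0.5, and no other test of it was run. With both tags kept in the fit and the array as a random block, RRD2 passed limma at an adjusted p of 0.048, as the only 1 of 9 members. Over all settings run, its adjusted p ranged from 0.048 to 0.43. The block fit takes the tags as repeated values, so its p reflects the spread of tags as well as that of arrays. The tags of 1 strain are not replicate experiments. The correlation used between both tags of an array was negative (-0.29), which makes the standard error of a mean smaller and the p lower. In the block fit 9.89% of all strains passed, against 0% with tags averaged, so 1 call among 9 is near the background.

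The signs of the 9 measured members were mixed. Positive on both arrays were 2 of 9, TPD3 and PPH21, beside 32.7% of all strains. Negative on both were 4 of 9, RTS1, PPH22, PPG1 and RRD2, beside 41.7%, and 3 had opposite signs. All 4 tag values were negative in 2 of 9, PPH22 and RRD2, beside 20.1% of strains with 4 values. All 4 were positive in 1 of 9, PPH21, beside 20.4%. No member was at least 2-fold from 0 in 1 direction on both arrays, and 4.46% of all strains were. The subunits of the PP2A complex itself did not share a direction: TPD3 and PPH21 were positive, and PPH22 and RTS1 negative.

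Partners and modifiers of these phosphatases had ratios on both sides of 0. The list held 22 genes and 21 were measured. Their median was -0.31, with -0.31 on array 1 alone and -0.15 on array 2 alone. On both arrays 10 of the 21 were negative, beside 41.7% of all strains, and 5 were positive, beside 32.7%. RIM15 is not analysed here because its symbol had more than 1 tag pair, and FAR9 was matched as VPS64. The highest was ZDS2, which encodes a regulator of Cdc55, at 0.49 ± 0.06, with all 4 tags between 0.43 and 0.57. The lowest was SAP185, which encodes a Sit4-associated protein, at -1.43 ± 0.42. That mean rested on the second SAP185 tag, which had -3.10 and -2.04, whereas the first had -0.35 and -0.22. By limma 0 of the 21 passed over all strains, with a smallest adjusted p of 0.229. The unadjusted limma p was under 0.05 for 1 positive strain, ZDS2, beside 9.12% of all strains. It was also under 0.05 for 3 negative ones, SAP185, IGO1 and FAR7, beside 11.7%. The FAR7 tags disagreed in sign, with the first at -1.39 on both arrays and the second at 0.37 and 0.40. All IGO1 tags were negative. With the array as a block, 2 of 21 passed, ZDS2 and IGO1, which encodes an inhibitor of PP2A with Cdc55. This is near the 9.89% of all strains that passed.

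Other catalytic subunits of the same phosphatase fold were all measured, 7 of 7, with a median of -0.58. On the arrays taken alone that median was -0.58 on array 1 and -0.08 on array 2. On both arrays 5 were negative, beside 41.7% of all strains, and 1 was positive, beside 32.7%. GLC7, the protein phosphatase 1 catalytic subunit, was highest at 0.72 ± 0.08, with tags from 0.52 to 0.87. PPT1, the yeast counterpart of protein phosphatase 5, was lowest at -1.39 ± 0.59, but its first tag stood at 0.32 and 0.33 and its second at -3.94 and -2.28. GLC7 exceeded every PP2A family catalytic strain on both arrays. The nearest were PPH21 at 0.42 on array 1 and SIT4 at 0.34 on array 2, and these differences were not tested. That comparison takes the strain named as highest of its list, so it does not describe the list. Each GLC7 tag had 1 spot, whereas each PPH21 and SIT4 tag had 6. By limma 0 of the 7 passed over all strains. The unadjusted limma p was under 0.05 for 1 positive strain, GLC7, beside 9.12% of all strains. It was also under 0.05 for 3 negative ones, PPT1, PPZ1 and CNA1, beside 11.7%. The PPZ1 tags, like those of PPT1, disagreed in sign, with the first at 0.08 and 0.20 and the second at -2.78 and -2.85. All CNA1 tags were negative. With the array as a block, 2 of 7 passed, GLC7 and the calcineurin subunit strain CNA1, beside 9.89% of all strains. IGO1, FAR7, PPZ1 and CNA1 are named because of their values.

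Mitotic genes on which PP2A acts, or which act beside it, numbered 11 and had a median of -0.20, with -0.37 on array 1 alone and -0.24 on array 2 alone. Both arrays were negative for 5 of them, beside 41.7% of all strains, and positive for 2, beside 32.7%. NET1, the nucleolar anchor of the Cdc14 phosphatase and a substrate of PP2A with Cdc55, was highest at 0.28 ± 0.05. CDC5, the polo-like kinase gene, was lowest at -1.57 ± 1.03, with its second tag at -4.52 on array 1. TORC1 signalling genes around the Tap42-bound phosphatases numbered 8 and had a median of 0.22, with 0.29 on array 1 alone and 0.19 on array 2 alone. Both arrays were positive for 5 of them, beside 32.7% of all strains, and negative for 2, beside 41.7%. LST8, a subunit of the TOR complexes, was highest at 0.55 ± 0.29, resting on its second tag, at 1.62 and 0.93. TCO89, a TORC1 subunit gene, was lowest at -0.76 ± 0.45. By limma 0 members of either list passed, also with the array as a block. At an unadjusted limma p under 0.05 there was 1 strain in both lists together, the negative MIH1, beside 11.7% of all strains. MIH1 is named because of its value. Its tags differed in size, at -0.17 and -2.82 on array 1 and at -0.85 and -0.47 on array 2.

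**Figure D4:**
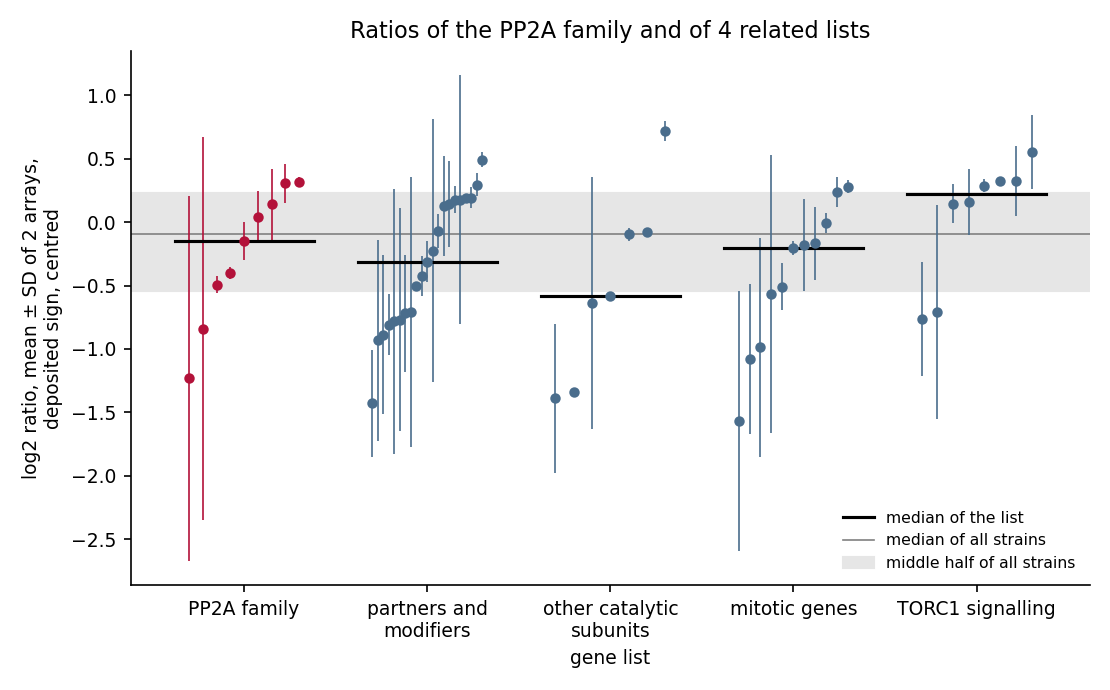
Mean log2 ratio (y axis, deposited sign, centred) of each measured strain, sorted within its list (x axis), with error bars of 1 SD over 2 arrays. Black lines give each list's median, the grey line the median of all strains at -0.09, and the grey band their quartiles from -0.54 to 0.23. The PP2A family strains extend from -1.23 to 0.32, with the widest error bars at the negative end.

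RTS1 was the member farthest from 0, and the strains with the most similar 4 tag values were YPL216W, YIL102C and YCX1. Their Euclidean distances from RTS1 over these 4 values were 0.52, 0.63 and 0.64, the smallest of 5190 strains compared. Their tags were at -1.72 or lower on array 1 and ran from -1.05 to 0.38 on array 2. This likeness to RTS1 follows from how the 3 strains were picked. Their means were -1.18 ± 1.20, -1.26 ± 1.46 and -1.19 ± 1.75 (SD, n = 2 arrays).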

How the data were processed

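Per the labels, array images were analysed with GenePix 5.1. Each deposited value is the log2 ratio of 1 spot, as its form shows: 100% are the log2 of a ratio with 2 decimals (within 0.1 of a hundredth). How the authors corrected background or normalized, and the genome build, is not given in the sources used. Precision is limited by the number of arrays (2), and their shared dye orientation leaves any dye effect in the values. The labels do not say whether the experiments were separate transformations, so the array-to-array spread behind the p-values may be technical. The eBayes step draws the variance of each strain toward that of all strains, and the block fit adds the spread between tags.

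The 2 values at a linear ratio of 1000000 were treated as missing. Probes were named through the platform annotation and the NCBI gene table of assembly R64. Of 18794 named probes, 18786 matched it. Symbols with more than 1 tag pair (105) were left out. Spots of a tag were averaged (6 spots in 781 strains, 1 in the others), the median of every array and tag set was subtracted, and tags were averaged. Limma 3.58.1 in R 4.3.3 tested 5219 strains against 0 (intercept, eBayes, two-sided, Benjamini-Hochberg over all strains, threshold 0.05). The step was run on simulated ratios with the same spread for all strains, which checked its mean estimates and not its p-values. Tables used Python 3.11.15 and pandas 2.3.3.

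The family and the lists were chosen with earlier results of these data known. The rule for named genes took all members, the highest and the lowest strain of each list, the 3 strains closest in tag values to the member farthest from 0, and TUB3 for scale. IGO1, FAR7, PPZ1, CNA1 and MIH1 were named outside it, after their values were seen. No sequences are shown.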

Additional observations from a re-analysis of the deposited data

How the results depend on the processing

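Under 10 other settings with a test, 90 member values were recomputed. In 87 of these the sign and the side of the threshold were as reported. Part of this was fixed in advance. Using 1 median per array repeated the main values, because both tag sets of an array had the same median. The fits without moderation, with robust eBayes and with the array as a block kept the same means, so their signs could not change. RRD1 changed sign without centring (-0.043), and PPG1 with the second tag set only (0.11), because that tag alone was near 0. RRD2 passed with both tags kept and the array as a random block (-0.49), the 1 member called in that setting. The consensus correlation of both tags of an array was negative there (-0.29). The count of members positive on both arrays was 1 with the first tag set only and 4 with the second. The members' median was -0.23 without centring, -0.21 after quantile normalization, -0.070 with the first tag set and 0.068 with the second. Leaving out each array in turn, the median ran from -0.107 to -0.058, the number of positive members was 3 or 4, and limma could not be fitted to 1 array. PPH3 then ranged from -1.91 to 0.23 and RTS1 from -2.25 to -0.21. With 2 arrays and no spot intensities used here, dim spots were not filtered.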
